A study of Emiliania huxleyi with 18 samples.

Results

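The genes described here are 100 transcripts of the alga Emiliania huxleyi. Under growth light alone their level stayed within set limits from 1 harvest day to the next. With added weak UV it was higher on each of 3 harvest days. They were chosen by their measured values among 41734 genes in all. A gene needed at least 200 UMIs (unique molecular identifiers, each marking 1 captured transcript) over all libraries, which 16714 genes had. Its mean log2 CPM (CPM, UMI counts relative to the library total after trimmed-mean scaling, with a prior count of 2) had to move by under 0.7 in control cultures from day 7 to 10 and from day 10 to 13, which left 11720 genes. These 11720 are called the steady genes, although steps in the same direction can add up to a larger change from day 7 to 13. The UV minus control difference had to be at least 0.15 on each day and at least 0.3 in the mean. These limits were met by 152 genes, 1.3% of the steady genes, and the 100 with the highest smallest difference are the members. The same limits with the sign of the UV difference turned round were met by 132 genes, 1.13% of the steady genes, and the first 100 of these are used below as the mirrored genes. Because the UV differences and the control steps chose the members, their sizes and calls are given as a description and support nothing.

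The libraries came from axenic cultures of 1 strain, CCMP3266, grown as 50 ml standing cultures from 330 cells per ml at 18 °C, with a light period of 16 h at 130 µmol photons per m2 each second, then 8 h of dark. Control cultures received this light alone. UV cultures also stood under a UV lamp for 14 h per day, which gave 0.5 (UV-A), 0.07 (UV-B) and 0.026 (UV-C) W per m2. Each arm was harvested on days 7, 10 and 13, with 3 libraries in each of the 6 groups, and the labels do not say whether these were separate cultures, so p-values measure the spread between these samples, which may be technical. UMI totals ranged from 1060640 in UV day 7 replicate 1 to 9216603 in UV day 7 replicate 3. On day 10, replicates 1 and 2 of either arm differed from the rest, with 0.87 to 0.876 UMIs per read against 0.7 to 0.795 elsewhere and at most 1699470 UMIs, so day 10 is also given within each kind of library.

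Emiliania huxleyi is a coccolithophore, a unicellular marine alga that covers itself with calcite scales and blooms in sunlit surface water. UV-B is absorbed by DNA, where it joins neighbouring pyrimidines, and it promotes reactive oxygen species. Algae commonly answer with light-driven DNA repair by photolyases, with antioxidant enzymes and with turnover of photosystem proteins, and UV-B also converts sterol precursors to vitamin D, the subject named in the series' title. None of these roles can be given to a member, because the files do not pair the identifiers with names or descriptions and 0 of the 100 members matched the RefSeq gene table of strain CCMP1516. Genes therefore appear by the authors' identifiers, a pair or so for each feature described, and no sequence is shown. A second identifier was listed for 97 members. For 7 members another gene carried the same one, so their reads could be divided between entries.

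In every UV library most members stood above the mean of the control libraries of the same day. On day 7, 93, 92 and 97 of the 100 members did so in UV replicates 1, 2 and 3. Day 10 gave 100, 93 and 95, and day 13 gave 94, 98 and 99. Of all 16714 genes 45%, 47.4% and 47.5% were above on day 7. Day 10 gave 50.9%, 50.7% and 52% of all genes, and day 13 gave 50.8%, 52.7% and 50.9%. The rule used these differences, so the member counts are a description. The median excess of the members was 0.54, 0.36 and 0.33 on the log2 scale in the 3 UV libraries of day 7, 0.5, 0.5 and 0.52 on day 10, and 0.37, 0.43 and 0.42 on day 13. Each control library, set against the other 2 of its day, had a member median between -0.11 and 0.15. The UV libraries thus lay above all control libraries in the median of the members, an order that the choice of members fixes. Over all 16714 genes the library medians lay between -0.05 and 0.02.

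**Figure D1:**
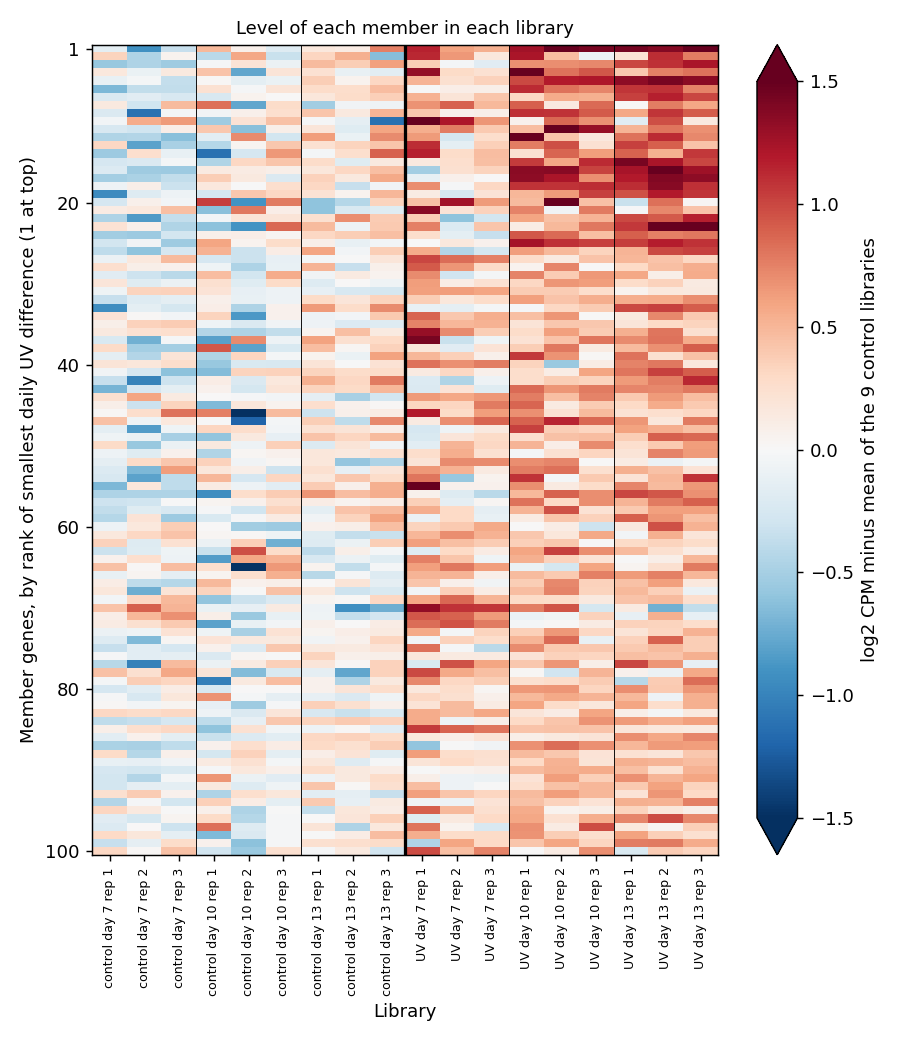
Each row is 1 of the 100 members, ordered by its smallest daily UV difference, and each column is 1 of the 18 libraries, control on the left and UV on the right. Colour is log2 CPM minus the gene's mean over the 9 control libraries; the UV columns are mostly red on each day, and the lower rows, which have smaller differences, are paler.

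**Figure D2:**
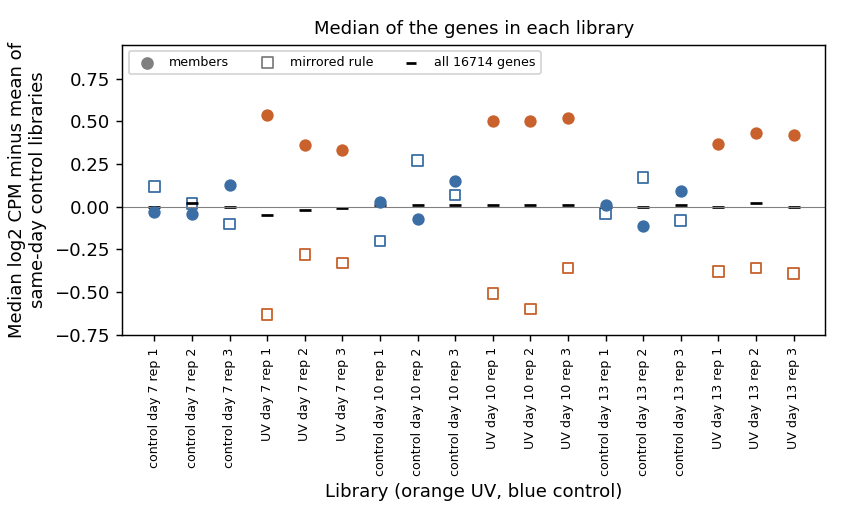
Each point is 1 library's median of log2 CPM minus the mean of the same-day control libraries (the other 2 for a control library), for the members (filled circles), the mirrored genes (open squares) and all 16714 genes (dashes). Member medians lie between 0.33 and 0.54 in UV libraries and between -0.11 and 0.15 in control libraries.

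The size of the difference was modest for most members. The median UV minus control difference was 0.39 on day 7, 0.49 on day 10 and 0.38 on day 13, which correspond to 1.31-fold, 1.41-fold and 1.3-fold. It was at least 2-fold in 1 member on day 7, 6 on day 10 and 7 on day 13. The largest daily differences were 1.23, 1.38 and 1.49. Over all 16714 genes the medians were -0.03, 0 and 0. The mirrored genes had medians of -0.41, -0.49 and -0.35.

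**Figure D3:**
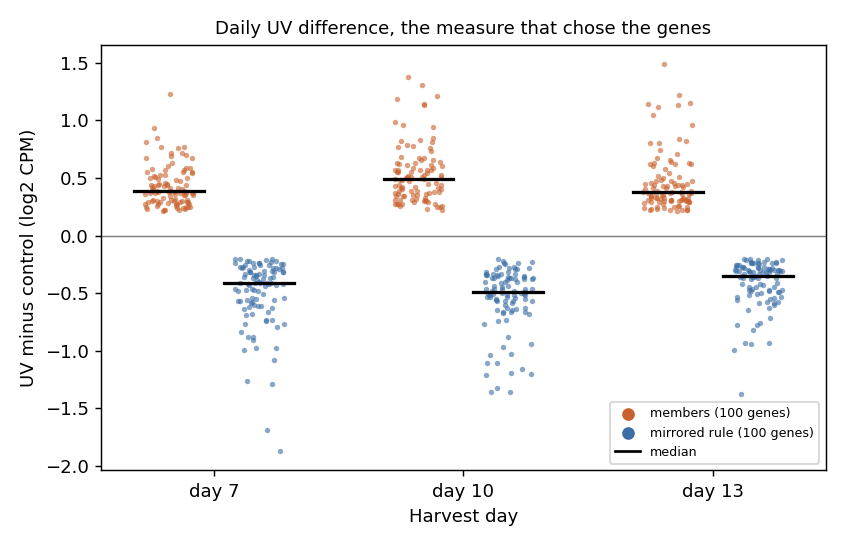
Each point is 1 gene's UV minus control difference in log2 CPM on day 7, 10 or 13, for the 100 members (orange) and the 100 mirrored genes (blue), with the median as a black line. Member medians are 0.39, 0.49 and 0.38; no point lies near 0 because the rule left such genes out.

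G41189 had the highest smallest difference and also the largest mean difference of the members. In control cultures it stood at 5.08, 2.82 and 4.38 CPM in replicates 1 to 3 of day 7, at 8.16, 6.02 and 4.94 CPM on day 10, and at 6.41, 6.24 and 9.88 CPM on day 13. In UV cultures it stood at 13.2, 8.85 and 8.41 CPM on day 7, at 14.2, 18.3 and 16.0 CPM on day 10, and at 16.2, 15.5 and 19.3 CPM on day 13. The arms did not overlap on any day, although the values rest on 9 to 87 UMIs per library. The UV difference was 1.23 (SE 0.30) on day 7, 1.31 (SE 0.22) on day 10 and 1.15 (SE 0.22) on day 13 on the log2 scale, n = 3 in each group, so it was nearly the same on each day. Its level was higher by 2.35-fold, 2.48-fold and 2.23-fold.

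G33518 was second by mean difference and was counted with far more UMIs, from 156 to 2077 per library. In control cultures it stood at 129, 137 and 109 CPM on day 7, at 141, 126 and 130.2 CPM on day 10, and at 181, 145 and 173 CPM on day 13. In UV cultures it stood at 199, 165 and 178 CPM, at 279, 318 and 323 CPM, and at 355, 374 and 358 CPM on the same days. Every UV library was above every control library of its day, and the difference was smaller on day 7 than later. It was 0.53 (SE 0.12), 1.21 (SE 0.08) and 1.13 (SE 0.10) on days 7, 10 and 13, n = 3 in each group.

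A high rank did not need separate groups. G24302, second by smallest difference, stood at 2.57 ± 0.796, 2.58 ± 1.24 and 2.88 ± 1.26 CPM without UV on days 7, 10 and 13 (SD, n = 3 each). With UV its levels were 4.4 ± 1.6, 4.19 ± 2.12 and 4.53 ± 1.47 CPM. Its arms overlapped on each day, and its 3 differences of 0.67 (SE 0.36), 0.59 (SE 0.49) and 0.62 (SE 0.45) rest on 2 to 33 UMIs per library. As 2 genes carry its second identifier, its value is uncertain.

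At the edge of the list the genes kept and left out were alike. The last members were G28253, with a smallest difference of 0.2123, and G7287, with 0.2112. The first genes left out were G8466, with 0.2108, and G13007, with 0.2104. G7287 stood at 12.2 ± 1.82, 8.93 ± 2.71 and 9.72 ± 1.5 CPM without UV and at 17.1 ± 3.2, 12.5 ± 3.51 and 11.4 ± 2.57 CPM in UV cultures on days 7, 10 and 13 (SD, n = 3 each). G8466 stood at 15.6 ± 2.77, 13.0 ± 1.47 and 10.9 ± 1.9 CPM without UV and at 20.0 ± 1.99, 16.9 ± 3.47 and 12.7 ± 2.24 CPM in UV cultures. G28253 had a day 7 difference of 0.21 (SE 0.36), which was -0.01 without UV day 7 replicate 2. The day 10 difference of G13007, 0.55 (SE 0.72), was -0.14 without control day 10 replicate 1.

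The day with the largest estimated difference varied between members. It was day 7 in 24 members, day 10 in 44 and day 13 in 32. The span between a member's largest and smallest daily difference had a median of 0.27 and reached 1.11. It was under 0.3 in 57 members and over 0.6 in 9. These are spans of estimates that each carry an error, and edgeR's joint test of variation between days passed in 3 members, described further on.

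The members whose difference grew most from day 7 to day 13 were G29322 and G7369. G7369 stood at 29.9, 33.7 and 25.2 CPM without UV and at 51.6, 31.2 and 39.2 CPM with it on day 7, so that the arms overlapped. On day 13 it stood at 39.2, 24.8 and 30.6 CPM without UV and at 68.7, 82.2 and 68.0 CPM in UV cultures, with every UV library higher. Its difference was 0.43 (SE 0.24) on day 7, 0.96 (SE 0.08) on day 10 and 1.22 (SE 0.21) on day 13. G29322 had the lowest mean log2 CPM of the members, with 1 to 46 UMIs per library, and on day 13 had 2.07 ± 0.485 CPM without and 6.88 ± 2.65 CPM with UV (SD, n = 3 each). Day 7 levels were 1.58 ± 0.466 and 2.23 ± 0.848 CPM, and its difference of 0.38 (SE 0.35) was near its error. On day 10 its difference was 0.68 (SE 0.58) and turned to -0.07 within replicate 3 of the arms.

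G13955 and G11810 had a difference that shrank most from day 7 to day 13. G11810 stood at 47.1, 53.0 and 55.0 CPM without UV and at 92.1, 82.3 and 78.0 CPM in UV cultures on day 7. On day 13 it stood at 41.9, 45.1 and 39.5 CPM without UV and at 50.4, 49.7 and 48.7 CPM in UV cultures. Every UV library was higher on both days, while the difference went from 0.70 (SE 0.10) to 0.23 (SE 0.06). The day 7 difference of G13955, 0.93 (SE 0.63), rested on UV replicate 1, which held 18.2 CPM from 18 UMIs against 5.19 CPM in each of the other UV libraries. Without that library it was 0.36.

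G33128 and G32227 had the highest mean CPM of the members. This is an order of UMIs captured, and whether it is an order of abundance between genes was not tested. G33128 stood at 589, 687 and 595 CPM without UV and at 733, 704 and 758 CPM in UV cultures on day 7. It stood at 519.6, 571 and 586 CPM against 699, 726 and 754 CPM on day 10, and at 817, 832 and 796 CPM against 1063, 981 and 1095 CPM on day 13. The arms were separate on each day although the differences, 0.23 (SE 0.08), 0.38 (SE 0.06) and 0.36 (SE 0.05), were among the smaller ones. G32227 went from 264 ± 4.21 to 323 ± 9.33 CPM on day 7, from 329.6 ± 19.4 to 451 ± 12 CPM on day 10 and from 355 ± 21.9 to 415 ± 41.9 CPM on day 13 (SD, n = 3 each), and its arms overlapped on day 13 only. G38940, which with G29322 had the lowest mean log2 CPM, had a mean difference of 0.31 (SE 0.18), about as large as the 0.32 (SE 0.04) of either of these 2 genes but with a wider error.

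**Figure D4:**
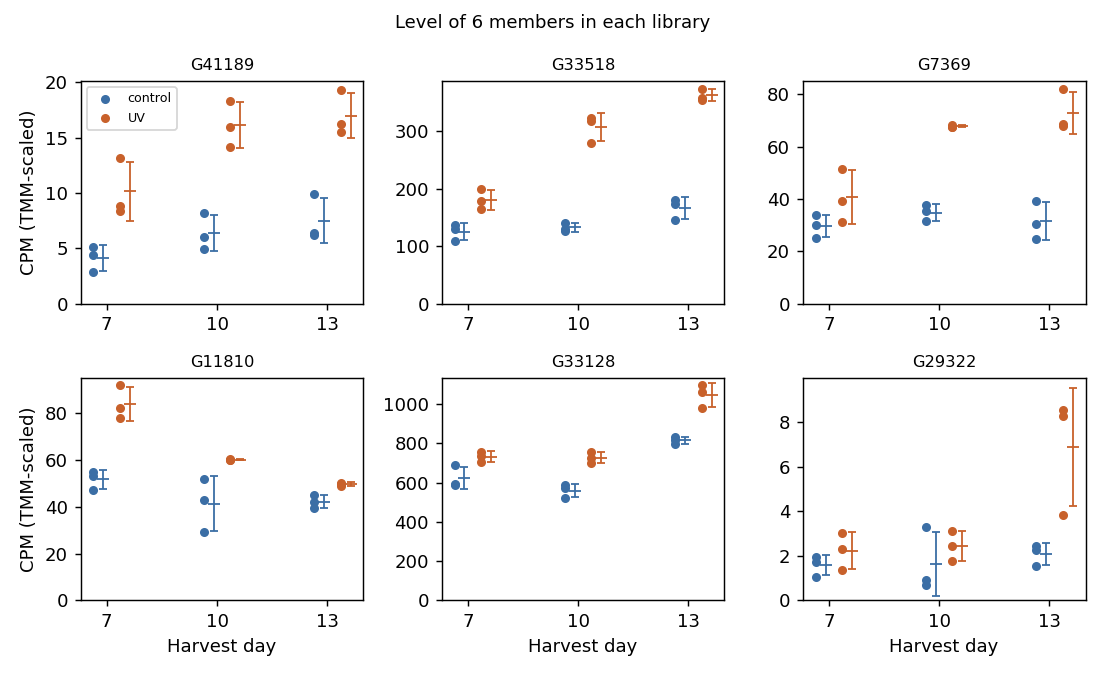
Level of 6 members in CPM, by harvest day, for control (blue) and UV (orange) libraries; points are single libraries and bars are the mean ± SD of 3. G41189 and G33128 are separate on each day, G33518 and G7369 widen after day 7, G11810 narrows by day 13, and G29322 overlaps on days 7 and 10.

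All 100 members entered edgeR's quasi-likelihood test with 18196 genes. On day 7, 10 members passed the adjusted p threshold of 0.05 as higher under UV, where 0.198% of all genes tested did. On day 10, 20 members passed, against 0.648% of all genes, and on day 13, 22 members passed, against 1.54%. For the mean of the 3 days 50 members passed, against 1.29%. Of the mirrored genes 5, 5 and 7 passed as lower on the 3 days and 36 in the mean, against 1.72%, 1.88%, 0.385% and 1.79% of all genes. These contrasts are the ones that chose the members, so nothing is read from the excess. For the fits with fewer libraries that follow, shares of all genes were not taken, so whether their calls fell alike was not tested. The day 7 count fell to 5 or 3 when control replicate 1 or 2 was left out, and to 6, 4 or 4 when UV replicate 1, 2 or 3 was. Leaving out the third control library brought the day 10 count to 10, and leaving out the third UV library to 13. It was 5 within the shallow day 10 libraries. It was 7 within the deep ones, where each arm kept a single library and its variation was taken from the remaining groups.

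Most members passed on no single day. Of the 100, 69 passed on no day, 16 on 1 day, 9 on 2 days and 6 on all 3. Of all genes tested 97.9% passed as higher on no day, 1.89% on 1 day, 0.17% on 2 days and 0.055%, or 10 genes, on all 3. Both G41189 and G33518 were among the 6. G26386, named after its values were seen, was the only one of the 6 whose arms overlapped on a day. It stood at 16.4, 13 and 12.9 CPM without UV and at 13.2, 22.5 and 24 CPM in UV cultures on day 7, with 13 UMIs behind the lowest UV value. By day 13 it stood at 21.5, 23.6 and 26.2 CPM without UV and at 45.2, 58.4 and 46.3 CPM in UV cultures, all higher.

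Every UV library was above every control library in 46 members on day 7, 49 on day 10 and 57 on day 13. Over all 16714 genes the same order was met by 6.44%, 7.28% and 10.4%. It was met on all 3 days by 20 members, where 0.287% of all genes met it, and on no day by 18 members, where 78.6% of all genes met it on none. In the mirrored genes every UV library was below every control library in 41, 34 and 52 genes, against 13%, 8.42% and 7.77% of all genes. The rule used these differences too, so the counts only describe how cleanly single libraries follow the group means.

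The authors' deposited table gave adjusted p under 0.05 and a higher level under UV for 8 members on day 7, 16 on day 10 and 20 on day 13. In the authors' deposited table, 0.113%, 0.394% and 1.33% of all 20313 genes met this on those days. Of these members 7, 16 and 20 also passed in edgeR. The fold change in the authors' deposited table was positive for 100, 98 and 100 members, and its median log2 value over all genes was -0.03, -0.01 and 0.01. That table rests on the same UMI counts and daily contrasts that chose the members, so these counts are a description.

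Day 10 differences were also taken within each kind of library. Within replicates 1 and 2 the median member difference was 0.52, and 100 members were higher under UV. Within replicate 3, a single library per arm, the median was 0.35 and 86 members were higher. Over all 16714 genes 49.7% and 50.6% were higher. Since all 6 day 10 libraries took part in choosing the members, these values are a description.

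More members passed in the bands of higher CPM. Shares of all genes were not taken by band, so this order is a description and not a trait of the members. Among the 34 members with the lowest CPM, at 1.46 to 3.01 log2 CPM, 5 passed for the mean of the days, and 1 had separate arms on each day. Among the middle 33, at 3.06 to 4.43, 15 passed and 5 had separate arms. Among the 33 with the highest CPM, at 4.45 to 9.52, 30 passed and 14 had separate arms. The median of the mean difference was 0.47, 0.39 and 0.46 in these bands. The rule bounded this difference from below in each band, so no likeness of effect is read from these medians. The median SD between replicates was 0.435, 0.257 and 0.178 on the log2 scale.

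**Figure D5:**
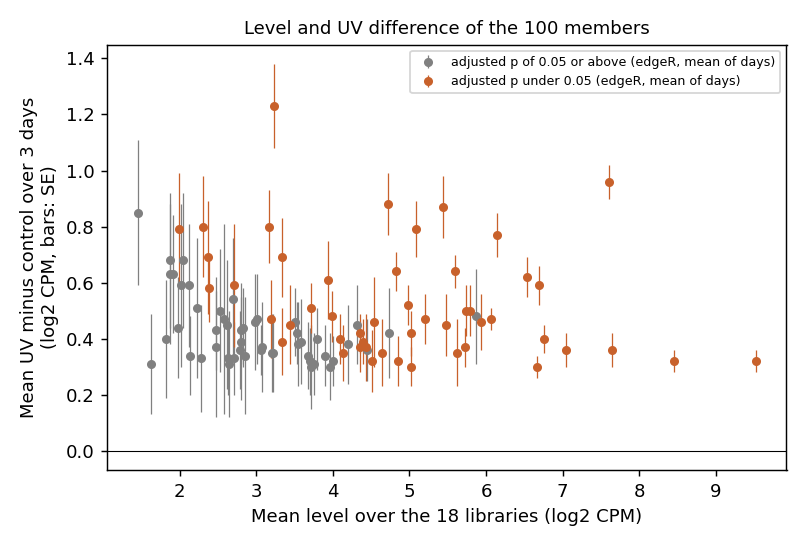
Mean level over 18 libraries (log2 CPM) against the mean UV minus control difference over 3 days (log2 CPM, bars are SE) for the 100 members, coloured by edgeR's adjusted p for that mean. Of the 33 members with the highest CPM 30 are under 0.05, and of the 34 with the lowest 5 are. Of all genes tested 1.29% passed as higher, a share not taken by level.

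The members had fewer UMIs than a typical gene of the table. Their mean log2 CPM had a median of 3.71, against 4.43 over all 16714 genes and 4.59 over the steady genes, and 3.2 in the mirrored genes. A member held 234 to 63200 UMIs over all libraries, and 23 members held under 500. The median was 1050, against 1850 over all genes and 1990 over the steady genes. Replicates of the members spread more, with a median SD of 0.265 against 0.221 over all genes and 0.202 over the steady genes. In the mirrored genes it was 0.347. UMIs per read were close, with a median of 0.781 in the members against 0.779 over all genes. With reads in place of UMIs all 100 members were higher under UV on each day, with medians of 0.39, 0.52 and 0.41. The reads come from the same libraries that chose the members, so this too is a description.

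Together the members took a small share of each library. Without UV it came to 0.247 ± 0.0131, 0.295 ± 0.00451 and 0.386 ± 0.0195% of UMIs on days 7, 10 and 13 (SD, n = 3 each). With UV it came to 0.35 ± 0.0125, 0.434 ± 0.00473 and 0.542 ± 0.0165%. The arms did not overlap on any day, which the choice of members favours, and the share was higher on later days in both arms. These shares carry no trimmed-mean scaling. With scaling by library total alone, the median control change of all genes from day 7 to 13 was 0.46 on the log2 scale. Their median UV difference on day 7 was then 0.11, so a typical gene shared in both shifts. G33128 alone held 20.9% of the members' UMIs, and the 10 members with the most held 58%. These shares are of the UMIs captured from bulk samples, so they give neither amounts per cell nor how many cells took part.

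Steady here means steady within the limits of the rule. From day 7 to day 13 the control level moved by -1.19 to 1.09 with a median of 0.25, and in 81 members by under 0.7, where 88.1% of the steady genes and 69.4% of all 16714 genes moved by less than that. In edgeR's test of day 13 against day 7 in control cultures, 36 members passed as higher and 11 as lower, against 29.9% and 26.8% of all genes. Between day 7 and day 10 the control counts were 13 higher and 7 lower, against 15.2% and 20.4%. Between day 10 and day 13 they were 11 and 1, against 12.1% and 14%. Shares passing among the steady genes alone were not taken.

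The rule set no direct limit on the steps between days under UV, although its other limits bear on them. Both UV steps were within 0.7 in 83 members and in 76 of the mirrored genes, against 88.1% of the steady genes and 70.4% of all 16714 genes. From day 7 to day 13 in UV cultures 51 members passed edgeR's test, against 53.4% of all genes, so their share lay near that of all genes. The members came from the steady genes only, for which no share passing was taken. Of the 51 members 41 were higher and 10 lower, against 27.5% and 25.9% of all genes. From day 7 to day 10, 27 were higher and 8 lower, against 18.2% and 19.8%. From day 10 to day 13, 8 were higher and 0 lower, against 9.14% and 10.9%, and at an unadjusted p under 0.05 edgeR put 4 members lower, against 16.2% of all genes. The largest step from day 7 to day 10 was that of G26386, which was higher by 1.22 under UV and by 0.54 in control cultures. The largest from day 10 to day 13 was that of G29322, at 1.29 under UV and 0.49 in control cultures.

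Variation of the UV difference between days, tested jointly by edgeR, passed the threshold in 3 members, G33518, G7369 and G10284, against 3.26% of all genes tested. Their share was close to that of all genes. All 3 had a more positive difference on day 13 than on day 7, and all 3 passed the test of those days alone as higher, against 3.18% of all genes, while 0 passed as lower, against 0.159%. At an unadjusted p under 0.05 edgeR had 1 member lower, against 3.41% of all genes, and DESeq2 and limma also put 0 past the adjusted threshold. G10284, named because the count was small, had 44.1 ± 7.37, 67 ± 12.8 and 52.9 ± 3.77 CPM without UV on days 7, 10 and 13 (SD, n = 3 each). With UV it had 56.5 ± 3.11, 117 ± 9.34 and 115 ± 5.95 CPM. The count was 1 without control day 7 replicate 1 or 2, UV day 7 replicate 2 or 3, control day 13 replicate 2 or UV day 13 replicate 2. It was 0 under total-count scaling, where 5 members had an unadjusted p under 0.05 in edgeR, against 13.2% of all genes. At the adjusted threshold, shares of all genes were not taken in these alternative fits.

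Within groups the members varied together weakly. The deviations of 2 members from their group means correlated at a mean of r = 0.0554 over the 18 libraries, against 0.00181 for all pairs among 16714 genes. Mirrored genes correlated with each other at 0.128, and members with mirrored genes at -0.066. The same libraries chose the members and the mirrored genes, so the deviation of 1 library can enter both the choice and these correlations. The values are therefore a description, and no shared regulation is read from them. Libraries of 1 group also differed in depth, from 1060640 to 9216603 UMIs in UV day 7. The largest member deviation was in UV day 7 replicate 1, the shallowest library, where the median member lay 0.13 above and the median mirrored gene deviated by -0.25 from its group mean. The part of depth in this was not tested.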

How the data were processed

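UMI counts and read counts per gene, both as deposited by the authors and not normalized, came from MARS-seq2.0 libraries of total RNA, along with a table of the authors' own comparisons. From that deposited table the log2 fold changes and adjusted p-values were used. Its 20313 genes carried raw counts that differed from the UMI matrix in 0 values. Which aligner, counter, genome build and annotation were used is not given in the sources used here. A further 36 columns of that table, normalized and transformed values per library, were not used.

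The rule was applied to edgeR log2 CPM (edgeR 4.0.16, R 4.3.3) with TMM factors from the 16714 genes. SE of a difference comes from the replicate SDs. Tests used edgeR's quasi-likelihood F-test (two-sided) on 18196 genes kept by filterByExpr (minimum count 10, minimum total 15), with 6 group means in 1 fit of 18 libraries and Benjamini-Hochberg adjustment at 0.05. The fit was tested on simulated data. Alternatives included DESeq2 1.42.0, limma-voom 3.58.1 and leaving out each library. Precision follows the UMIs per library. Named members were taken by a fixed rule, the 2 extremes of each feature, plus G10284 and G26386. The members and lists were chosen with earlier results of these data known. Functional lists could not be applied because no descriptions are paired with the identifiers.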

Additional observations from a re-analysis of the deposited data

Results flagged for a closer look

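In 3 of 100 members, against 3.26% of all genes tested, the UV difference varied between harvest days by the joint test in edgeR's quasi-likelihood fit, which asks whether the UV effects of the 3 days differ. The rule bounded each daily difference from below, so these values are descriptions. For G33518 the adjusted p was 0.00727, with differences of 0.53, 1.21 and 1.13 on days 7, 10 and 13 and every UV library above every control library on each day. For G10284 it was 0.0248, with differences of 0.37, 0.82 and 1.12, and for G7369 it was 0.0369, with 0.43, 0.96 and 1.22. Over the 29 alternatives, fitted with edgeR, DESeq2 or limma, the adjusted p lay between 0.000603 and 0.147 for G33518, between 0.00509 and 0.285 for G10284 and between 0.00166 and 0.433 for G7369. It was above the threshold in 3, 8 and 12 of them.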

How the results depend on the processing

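Of the 100 members, 74 met the limits under total-count scaling, which moved the median UV difference of all genes on day 7 from -0.03 to 0.11 and their control change from day 7 to 13 from 0.07 to 0.46. At equal depth (each library thinned to the shallowest) 50 met them, and with replicate 3 as the only day 10 library of each arm 65 did. The other alternatives gave 75 to 99, including 75 to 95 without 1 library, and all 100 members kept a positive difference on each day under each scaling, but 74 did at equal depth, 86 with day 10 replicate 3 only and 97 to 100 without 1 library. Equal depth, at which 78 members were tested, gave 3 members higher on day 7, 9 on day 13, 25 in the mean of days, 31 changed with age under UV and 0 in the interaction (7 at an unadjusted p under 0.05, edgeR, against 9.93% of all genes). Within day 10 replicate 3, with a single library per arm assumed to vary like the remaining groups, the day 10 count was 7, and within replicates 1 and 2 it was 5. Leaving out 1 library gave 3 to 13 members on day 7, 10 to 22 on day 10, 16 to 24 on day 13, 40 to 50 in the mean and 1 to 3 in the interaction. For counts at the adjusted threshold, shares of all genes were not taken under the alternatives. Whether the calls of all genes fell alike was therefore not tested. Of the 50 members that passed in the mean, 35 also passed in DESeq2 and 49 in limma-voom. With replicates 1 and 2 as the only day 10 libraries 33 of the 50 passed. The interaction count was 0 under total-count scaling and 1 with read counts. Differences turned at equal depth for G38940 (-0.1, day 10), G28253 (-0.25, day 7), G8466 (-0.25, day 10) and G13007 (-0.28, day 7). They turned within day 10 replicate 3 for G29322 (-0.07), G8466 (-0.02) and G13007 (-0.15), without UV day 7 replicate 2 for G28253 (-0.01, range -0.01 to 0.52 without 1 library) and without control day 10 replicate 1 for G13007 (-0.14, range -0.14 to 1). Thinning leaves fewer UMIs; otherwise the cause was not tested. Of 1793 values for named genes 1746 kept their direction and call or stayed within the gene's replicate SD of the main value. Many daily differences could hardly change, because the library left out was of another day, so this count is no measure of robustness. Deviations from the group means correlated at r from -0.0804 to 0.252 between same-numbered libraries of a day, highest for replicate 3 of day 10. Replicate numbers were not used as pairs in the main fit. With the number as a block the counts were 11, 23, 23 and 51 for days 7, 10, 13 and their mean.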
